A study of Rattus norvegicus with 12 samples.

Results

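Ribosomal proteins were examined as a set in rat kidney: the proteins of the cytosolic ribosome (symbols starting with Rpl, Rps or Rplp, and Rpsa) and those of the mitochondrial ribosome (Mrpl and Mrps). Members were taken by symbol alone, without the Rps6k kinases, and no measured value entered the rule. The set itself, and the companion lists used below, were chosen with earlier results of these data known. The rule found 95 genes on 103 probes, of 9653 named genes and 18478 features (named genes plus unnamed probes) on the array. Of these, 51 were cytosolic, with 30 of the large and 21 of the small subunit, and 44 were mitochondrial, with 29 Mrpl and 15 Mrps symbols. Mitochondrial genes were placed in the large (Mrpl) or small (Mrps) subunit by symbol alone, which need not match their place in the ribosome. All 95 had a value on every array, so no filter removed any. The stalk proteins Rplp1 and Rplp2, and Rpl22 and its paralogue Rpl22l1, had no probe with a single symbol.

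All donors and recipients were inbred male Lewis rats, so every graft was an isograft, a graft between genetically alike animals. Each of 4 groups held 3 arrays: normal kidneys, kidneys from brain dead donors before transplantation (0 h), living donor grafts at 1 h after transplantation, and brain dead donor grafts at 1 h. Brain death had been induced by slowly raising intracranial pressure, and those donors were mechanically ventilated for 6 h. No group is described as ventilated without brain death, so the effects of brain death cannot be told apart from those of ventilation. The left kidney was grafted in its normal place after 30 min of operative ischemia and the recipient's right kidney was removed, in both graft groups. Ages are not given in the labels, and nothing beyond their wording says that replicates came from separate animals, so the p-values cover only the spread among these arrays. Groups were read from the sample titles, since all 12 arrays carry one identical description.

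Each value is a log2 ratio of the kidney (Cy3 dye) over a common mixture of 3 normal kidneys (Cy5 dye), so that 0 means equal to the mixture. The sources used here do not say whether those 3 kidneys are also the normal group. A ratio gives no transcript level, so levels cannot be ranked between genes, and the kidney's defining markers cannot be checked for presence. Intensities were not analysed here, and the number of arrays limits the precision. In whole kidney, fewer cells of a type and less RNA per cell cannot be told apart. Many ribosomal protein genes have near-identical processed copies in the genome, and whether a probe also bound such transcripts was not tested.

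The cytosolic ribosome translates nuclear messages and consists of a small subunit that reads the mRNA and a large subunit that forms peptide bonds. Most mRNAs of its proteins start with a terminal oligopyrimidine tract (TOP), a C followed by a run of pyrimidines through which the mTOR pathway controls their translation. The mitochondrial ribosome is made of nuclear-encoded proteins, is distinct from the cytosolic one, and translates the few mitochondrial messages, all for subunits of the respiratory chain or the ATP synthase. Kidney tubules depend heavily on this machinery to drive salt transport.

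The starts of 5 cytosolic genes are shown because the results below give their values on each array and they show starts with and without the tract. They are RefSeq sequence of rat assembly GRCr8, 15 bases on either side of the annotated start, on the gene's own strand from 5′ to 3′. Capitals mark the TOP run from the annotated start.
Rps15, small subunit (chr7:10068101-10068130, minus strand): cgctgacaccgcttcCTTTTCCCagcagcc
Rps26, small subunit (chr7:1643390-1643419, minus strand): gagagccgccgggtcCTCTTTCgagtcttg
Rpl10, large subunit (chrX:157205835-157205864, plus strand): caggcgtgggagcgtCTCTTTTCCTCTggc
Rplp0, stalk base (chr12:46718376-46718405, minus strand): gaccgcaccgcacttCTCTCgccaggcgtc
Rps3, small subunit, with no such run at the annotated start (chr1:163195762-163195791, minus strand): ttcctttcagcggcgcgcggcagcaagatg

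Of the 5 mitochondrial genes that fell in the results below, 3 had the ETS family core CCGGAAG (searched on both strands, so also as CTTCCGG) in their promoter window, and 30 bases around it are shown for these with the core in capitals. Mrpl53 had cores starting at -56 and at -16 from the annotated start, and only the one at -16 is shown. Mrpl55 had no such core in its window, and Mrpl15 had no promoter window.
Mrps21, small subunit (chr2:186103326-186103355, minus strand): cgtagcttccgCTTCCGGtacggagggtat
Mrpl30, large subunit (chr9:47621226-47621255, plus strand): ccgttccgctcCTTCCGGctgctggggggc
Mrpl53, large subunit (chr4:117173016-117173045, plus strand): cagtgctactcCTTCCGGggcggaggtaac

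Promoter windows (250 bases before to 50 after the start) were found for 76 of the 95 genes, 41 cytosolic and 35 mitochondrial. A C followed by at least 4 pyrimidines stood exactly at the annotated start in 14 of 41 cytosolic genes (34.1%) and 2 of 35 mitochondrial genes (5.71%), against 2.44% of 19005 protein-coding genes. Starts annotated a few bases away, as in Rps3, miss such a run, so the count depends on the annotation. The ETS core lay in 12 of 35 mitochondrial windows (34.3%) and 10 of 41 cytosolic windows (24.4%), against 11.2% of all. The full palindromic site of nuclear respiratory factor 1, searched without mismatch, lay in 4 mitochondrial windows (11.4%) and 0 cytosolic ones, against 1.14% of all. The E-box CACGTG, also the same on both strands, lay in 4 mitochondrial (11.4%) and 2 cytosolic (4.88%) windows, against 7.27% of all. These matches describe letters in a window and not binding.

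Differences in ribosomal protein mRNA between groups were small. No member differed 2-fold between any groups compared, and the 95% interval of the difference excluded a 2-fold change for 51 of 51 cytosolic and 43 of 44 mitochondrial members in the comparison of brain dead donor and normal kidneys. The exception was Mrpl16, whose 12 values ran from 0.10 to 1.67 with wide scatter inside every group. Across the 12 arrays, the range of a member's values was under 1 log2 unit for 92 of 95 members (median 0.42), the others being Mrpl16, Rpl41 and Rpl3l. The median SD over the arrays was 0.12 in each class, beside 0.13 over named genes and 0.15 over all features.

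Even the normal kidneys did not sit at 0. The mean of the 3 normal arrays was above 0 for 70 of the 95 members, with a median of 0.15 in cytosolic and 0.17 in mitochondrial genes. The median over all features lay from 0.0030 to 0.0066 on those arrays. Of all members, 43 lay above 0 on all 12 arrays and 6 below. These counts are given without a share over all features. Rps29, a small zinc-binding protein of the small subunit, lay between -1.16 and -0.91 on the 12 arrays, which is the lowest of the members. All arrays carried the sample in the same dye, so dye and reference mixture cannot be told apart as the source of such offsets. They cancel in differences between groups, which the following results use.

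**Figure D1:**
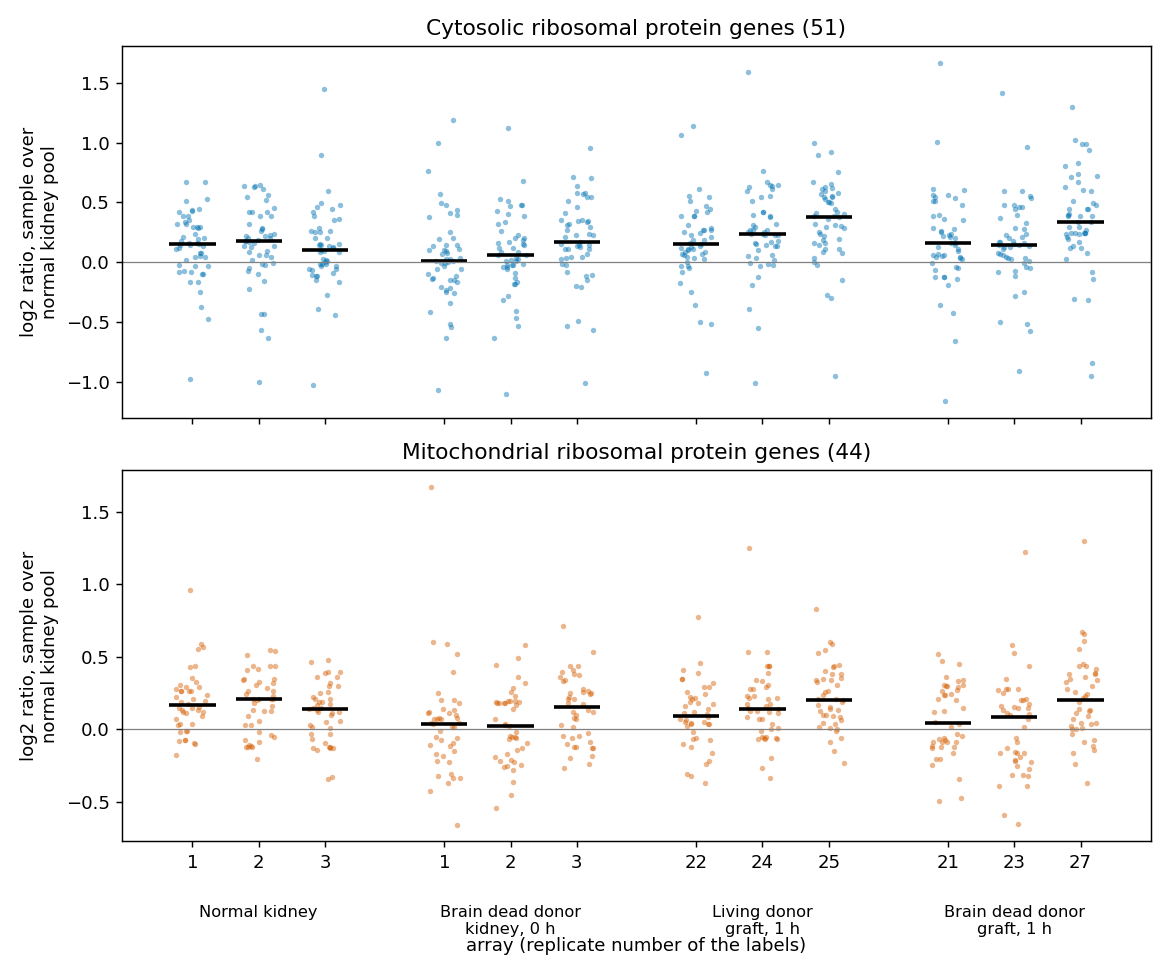
Log2 ratio of the sample over the normal kidney mixture (vertical axis) for each of 51 cytosolic (top) and 44 mitochondrial (bottom) ribosomal protein genes on the 12 arrays (horizontal axis, by group and replicate number). Points are genes and black bars are medians. Cytosolic medians run from 0.01 to 0.38, and replicates 3 (brain dead donor kidneys), 25 (living donor grafts) and 27 (brain dead donor grafts) are highest in their groups in both classes.

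Single arrays stood apart in both classes, and this bears on every result on the cytosolic set. The cytosolic median was 0.15, 0.18 and 0.11 on the normal arrays and 0.01, 0.06 and 0.17 for brain dead donors at 0 h. It reached, in living donor grafts (replicates 22, 24 and 25), 0.15, 0.24 and 0.38, and in brain dead donor grafts (replicates 21, 23 and 27) it was 0.16, 0.14 and 0.34. The highest array of a group was thus high for nearly the whole set. Replicate 3 of the brain dead donor kidneys held the group's highest value in 43 of 51 cytosolic genes (84.3%), against 32.2% of all features. Replicate 25 of the living donor grafts did so in 38 (74.5%, against 39.0%) and replicate 27 of the brain dead donor grafts in 45 (88.2%, against 35.4%). The mitochondrial set leaned the same way on these arrays, with the group's highest value in 33, 28 and 33 of 44 genes. Markers of the proximal tubule (7 of 8 listed were measured) had their lowest median of the group on the same 3 arrays, at -0.09, -0.33 and -0.44, while the group's other arrays lay from 0.11 to 0.22, from -0.28 to -0.12 and from -0.26 to -0.17. Markers of the loop of Henle and distal nephron (4 of 6 measured) were also lowest there, at 0.08, -0.09 and 0.23. The part of cell makeup in these values was not tested.

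**Figure D2:**
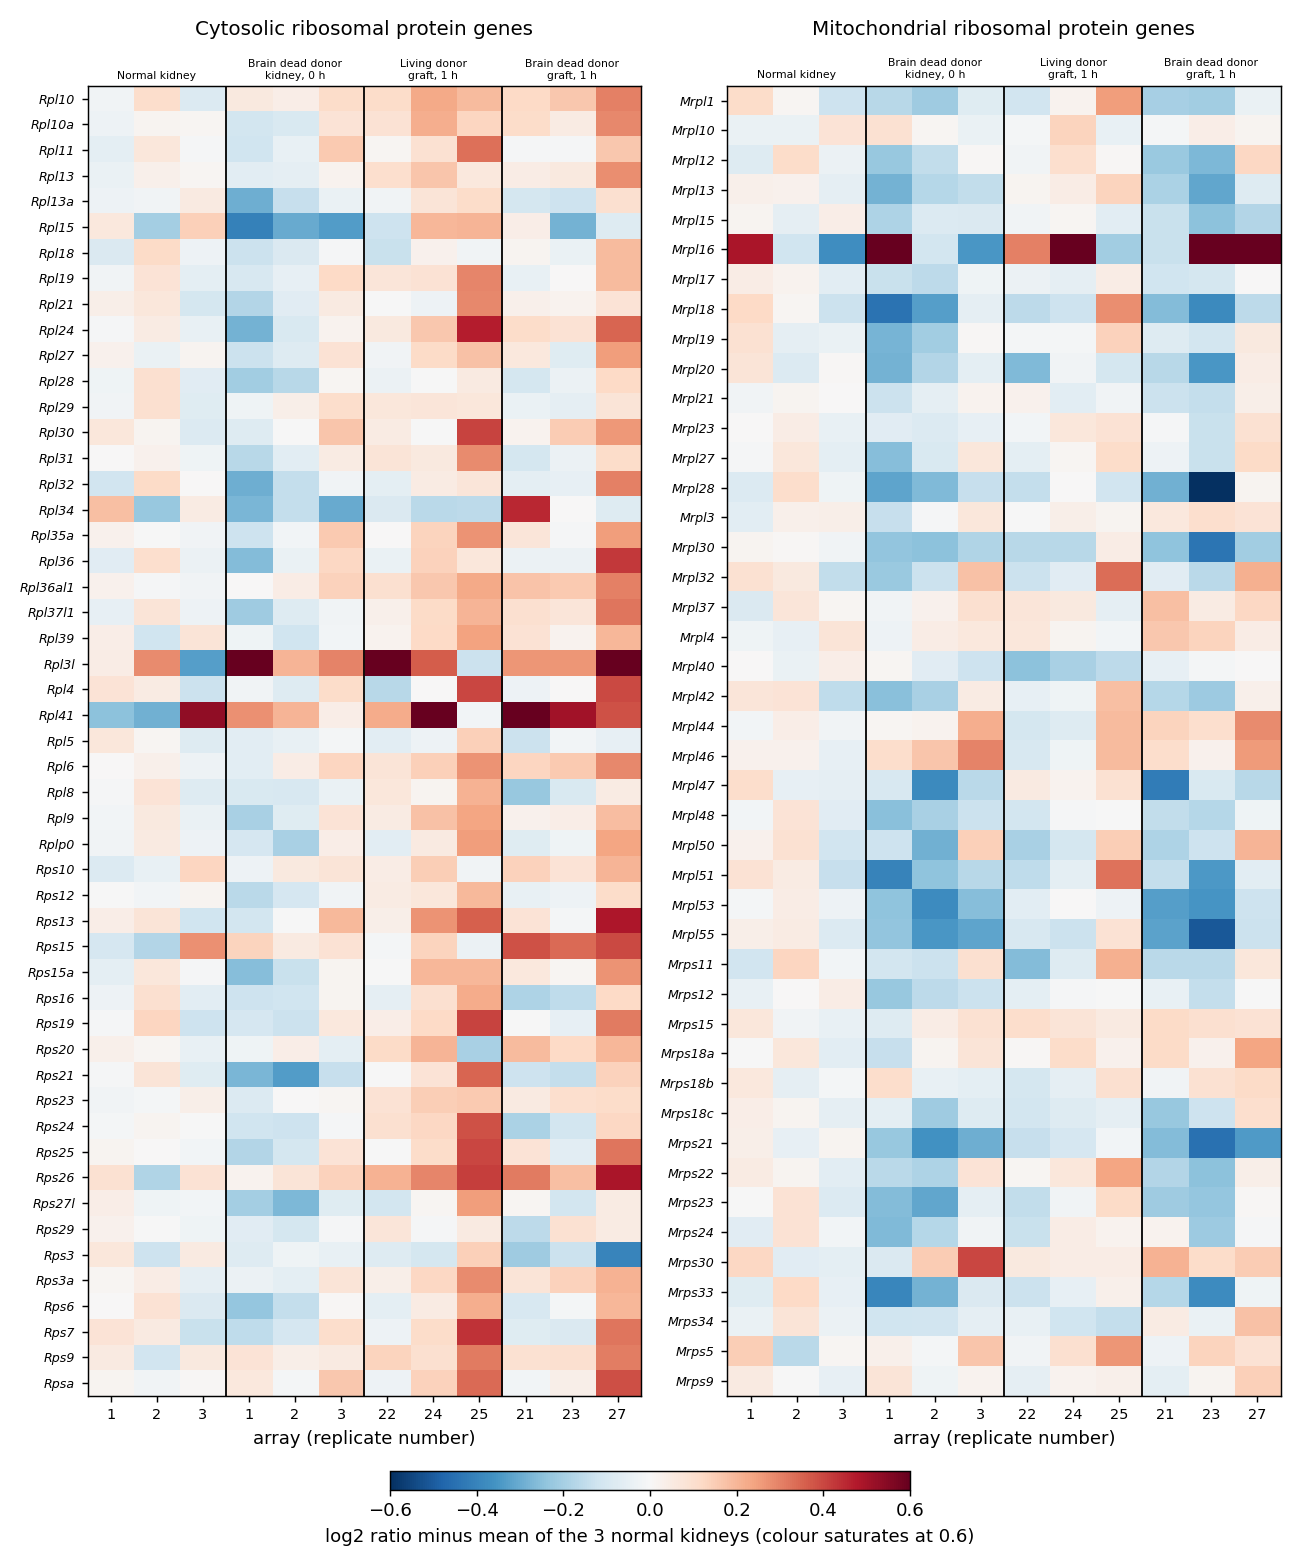
Log2 ratio minus the mean of the 3 normal kidneys for every member (rows) on every array (columns), cytosolic genes left and mitochondrial genes right. Colours run from -0.6 (blue) to 0.6 (red) and saturate beyond. Red columns at replicates 25 and 27 mark the cytosolic genes in the grafts, and blue blocks mark mitochondrial genes such as Mrps21, Mrpl53 and Mrpl55 in both brain dead donor groups.

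The first comparison asked what brain death did to the donor kidney before transplantation. Of the mitochondrial set, 2 of 44 genes fell and none rose in kidneys of brain dead donors, beside 4.65% of all features called in either direction, 2.27% higher and 2.39% lower. The 2 were Mrps21, a small subunit protein, and Mrpl53, a large subunit protein. Of the cytosolic set, 0 of 51 passed the test (adjusted p under 0.05, limma moderated test with Benjamini-Hochberg adjustment over 18478 features). At an unadjusted p under 0.05, 9 mitochondrial and 2 cytosolic genes were lower and none was higher, beside 9.50% of all features lower and 8.21% higher.

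Mrps21 measured 0.21, 0.12 and 0.19 in normal kidneys, and -0.06, -0.19 and -0.12 in brain dead donor kidneys. The means were 0.17 ± 0.04 and -0.12 ± 0.07 (SD, n = 3 arrays each), and the groups did not overlap. The difference was -0.29 ± 0.06 (SE) on the log2 scale, which is 81.5% of the normal level, with an adjusted p of 0.0301 in limma. This call held in 6 of the 12 fits that each left out 1 array, with an adjusted p of 0.125 without replicate 2 of the brain dead donor kidneys. Here and below, fits without an array of a group not compared change the estimate of the spread but not the difference itself. Mrpl53 measured 0.16, 0.21 and 0.13 in normal and -0.08, -0.21 and -0.09 in brain dead donor kidneys. It was lower on all 3 arrays, by -0.29 ± 0.07 (SE, adjusted p of 0.0410 in limma), and the call held in 4 of 12 such fits, with an adjusted p of 0.163 without replicate 2 of the brain dead donor kidneys. Neither call held when only these 2 groups were fitted.

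Counted over the whole mitochondrial set, these 2 genes included, the difference was below 0 for 33 of 44 genes, with a median of -0.10, beside 9338 of 18478 features below 0 and a median of -0.0015. Of the Mrpl symbols 23 of 29 and of the Mrps symbols 10 of 15 were below 0. Groups did not overlap for 16 of 44 genes, 15 lower and 1 higher (Mrpl46), beside 23.9% of all features. The median was -0.17 without replicate 3 of the brain dead donor kidneys, the array on which the set was highest in its group. Among members that did not pass, Mrpl55 had the lowest value, -0.30 ± 0.09 (SE, adjusted p of 0.113 in limma). Mrpl16 (0.25 ± 0.44), Mrpl46 (0.19 ± 0.09) and Mrps30 (0.16 ± 0.11) had the highest.

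Proteins of the mitochondrial ribosome with known separate roles gave values inside their error or did not pass. Mrpl12, which also binds the mitochondrial RNA polymerase in human cells, differed by -0.12 ± 0.11 (SE). Mrps12, a protein of the decoding region and the counterpart of bacterial S12, differed by -0.17 ± 0.05, and its arrays did not overlap (0.30, 0.35 and 0.39 against 0.12, 0.19 and 0.22), with an adjusted p of 0.104 in limma. The 3 Mrps18 paralogues, which occupy different places in the ribosome, differed by -0.02 ± 0.07 (Mrps18a), 0.00 ± 0.07 (Mrps18b) and -0.12 ± 0.08 (Mrps18c).

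In the cytosolic set 36 of 51 differences were below 0, with a median of -0.05. The lowest were Rpl15 (-0.35 ± 0.12, adjusted p of 0.148 in limma), Rps21 (-0.25 ± 0.11) and Rpl34 (-0.24 ± 0.14). The highest were Rpl3l, a paralogue of Rpl3 used in striated muscle (0.41 ± 0.25), Rpl41 (0.17 ± 0.23) and Rps15 (0.09 ± 0.10). Rpl5 and Rpl11, which bind Mdm2 when ribosome assembly fails, differed by -0.04 ± 0.07 and 0.00 ± 0.10. Rps27l, a p53 target in human cells, lay at -0.10, -0.16 and -0.15 in normal and -0.34, -0.41 and -0.21 in brain dead donor kidneys. The difference of -0.18 ± 0.09 did not pass. These arrays did not overlap, as was so for 23.9% of all features in this comparison. Rps6, the substrate of S6 kinase, differed by -0.12 ± 0.10, Rplp0 by -0.09 ± 0.10, Rpsa by 0.07 ± 0.12 and Rpl10 by 0.07 ± 0.07.

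In the lists of genes that build and serve cytosolic ribosomes the calls were in the higher direction. Over all features 2.27% were called higher and 2.39% lower. Of 38 measured genes for ribosome assembly and rRNA synthesis, 3 rose and none fell in brain dead donor kidneys, with a median of 0.10. Tsr1, a late factor of small subunit assembly, rose by 0.56 ± 0.08 (SE, adjusted p of 0.00623 in limma), Nob1, the nuclease that trims the small rRNA, by 0.27 ± 0.06, and Nop58, a core protein of the rRNA methylation particle, by 0.23 ± 0.05. Of 26 measured translation factors and other TOP mRNAs, 4 rose and none fell, with a median of 0.11. These were Hnrnpa1 (0.85 ± 0.10), Eif5 (0.83 ± 0.15), Eif3a (0.48) and Eif2s2 (0.35). The list of mitochondrial translation held 16 measured genes, among them the mitochondrial RNA polymerase Polrmt, and had a median of -0.18. In it Mterf2, a factor bound to mitochondrial DNA, fell by 0.77 on the log2 scale and Nsun4, which methylates mitochondrial rRNA, rose by 0.42. Of 14 genes of mTOR and growth control, Sesn2, a stress-induced inhibitor of mTOR complex 1, rose by 1.15 and no other passed. Of 4 measured neutrophil markers, S100a9 rose by 3.47, and the list's array medians ran from 0.60 to 1.65 in brain dead donor kidneys and from -0.08 to 0.05 in normal kidneys. The part of incoming cells in the ribosomal values was not tested.

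**Figure D3:**
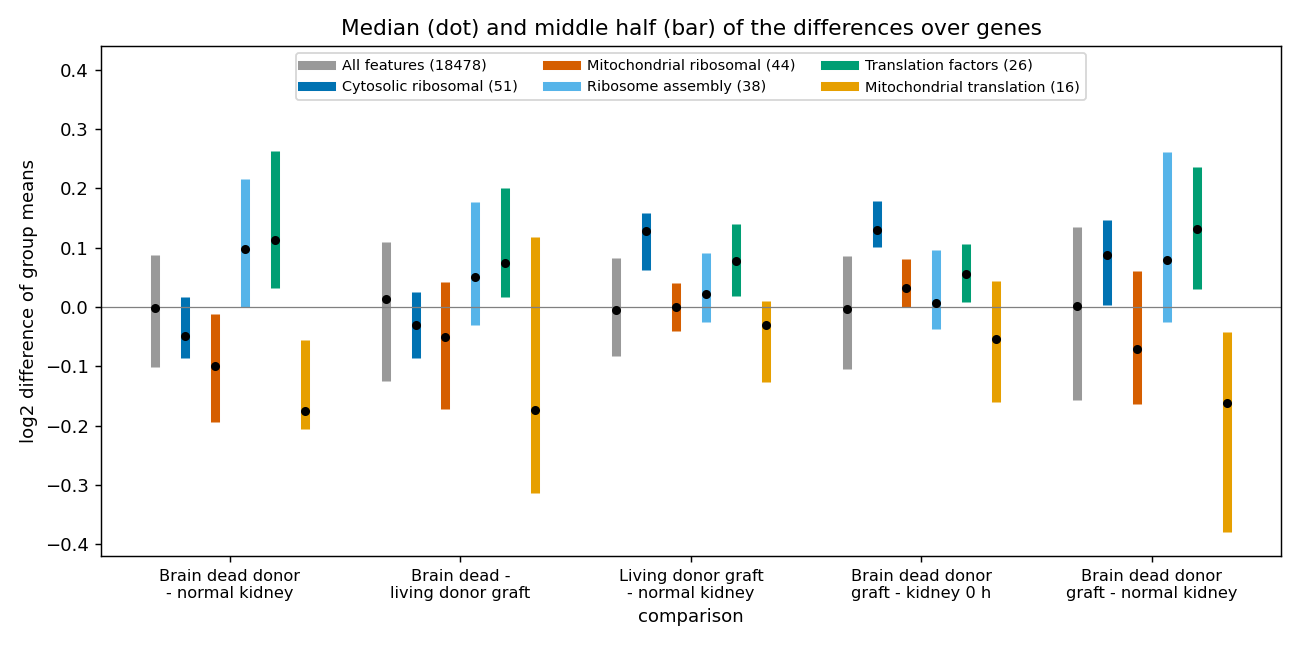
Median (dot) and middle 50% (bar) of the log2 difference between group means (vertical axis) for all features, both ribosomal sets and 3 companion lists in 5 comparisons (horizontal axis). Cytosolic ribosomal genes lie near 0.13 in both comparisons of 1 h grafts with their own donor state, while mitochondrial ribosomal genes lie at -0.10 and -0.05 in the comparisons of brain dead with normal or living donors.

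The second comparison set brain dead against living donor grafts 1 h after transplantation. Of the mitochondrial set, 1 of 44 genes fell, again Mrps21, and none rose, beside 6.76% of all features in either direction, 2.02% higher and 4.74% lower. Of the cytosolic set 0 of 51 passed. At an unadjusted p under 0.05 there were 2 mitochondrial genes higher and 8 lower, and 1 cytosolic gene higher and 3 lower, beside 8.41% of all features higher and 12.6% lower.

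Mrps21 measured 0.03, 0.07 and 0.15 in living donor grafts and -0.09, -0.28 and -0.17 in brain dead donor grafts, with no overlap. The means were 0.09 ± 0.06 and -0.18 ± 0.09 (SD, n = 3 arrays each). The difference was -0.26 ± 0.06 (SE, adjusted p of 0.0348 in limma), and it passed in 4 of 12 fits with an array left out, with an adjusted p of 0.112 without replicate 25 of the living donor grafts. Quantile normalization between arrays and a fit of these 2 groups alone each left 0 mitochondrial genes called. The mitochondrial median was -0.05, with 30 of 44 below 0, beside 8588 of 18478 features below 0. With single arrays left out, that median was -0.01 (brain dead donor graft 23), -0.12 (brain dead donor graft 27), -0.10 (living donor graft 22) and -0.03 (living donor graft 25). The lowest others were Mrpl28 (-0.29 ± 0.18), Mrpl47 (-0.28 ± 0.10) and Mrpl55 (-0.27 ± 0.09), and the highest were Mrpl16 (0.19 ± 0.44), Mrpl40 (0.18 ± 0.05, adjusted p of 0.0624 in limma) and Mrpl44 (0.17 ± 0.09). Mrpl44 is an RNase III-like protein of the large subunit.

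The cytosolic median was -0.03 (34 of 51 below 0). It was above 0 with array weights (0.0022) and went up to 0.03 when single arrays were left out. Rps15, which sits near the decoding centre, measured 0.61, 0.76 and 0.59 in living and 1.01, 0.96 and 1.02 in brain dead donor grafts. These arrays did not overlap, and the difference was 0.34 ± 0.10 (SE, adjusted p of 0.0813 in limma). Rpl34 (0.26 ± 0.14) and Rpl41 (0.25 ± 0.23) came next. The lowest were Rps24 (-0.26 ± 0.09), Rps3, which lines the mRNA entry channel (-0.23 ± 0.09), and Rpl15 (-0.20 ± 0.12). Rps3 measured -0.52, -0.55 and -0.30 in living and -0.66, -0.57 and -0.84 in brain dead donor grafts, without overlap.

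Groups did not overlap for 10 of 44 mitochondrial genes, 4 higher and 6 lower, and for 3 of 51 cytosolic genes, beside 25.8% of all features.

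Companion lists of the cytosolic ribosome again held calls in the higher direction, beside 2.02% of all features called higher and 4.74% lower. In ribosome assembly 4 of 38 genes rose and none fell, namely Nip7 (0.66), Gnl3 (0.60), Tsr1 (0.58) and Pes1 (0.33), with a list median of 0.05. In translation factors 4 of 26 rose and none fell, namely Hnrnpa1 (0.75), Eif5 (0.68), Eif3d (0.44) and Eif2s2 (0.30), with a list median of 0.07. In mitochondrial translation 3 of 16 fell and none rose: Mterf2 fell by 0.85, the initiation factor Mtif2 by 0.35 and the formyltransferase Mtfmt by 0.28, with a list median of -0.17. Sesn2 rose by 0.63.

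These comparisons at 0 h and at 1 h share no array, other than the common reference, and their values can be set side by side. Of the 44 mitochondrial genes, 28 (63.6%) were below 0 in both, beside 31.8% of all features, and 28 of 51 cytosolic genes (54.9%) were so. Across the 44 genes the 2 differences correlated at a Pearson r of 0.81 and a Spearman rho of 0.82, against an r of 0.38 in the cytosolic set, 0.68 over named genes and 0.54 over all features. Genes are not independent replicates, and the coefficients are descriptions. Among the 10 lowest mitochondrial genes of each comparison, 8 were shared: Mrpl18, Mrpl28, Mrpl30, Mrpl47, Mrpl51, Mrpl53, Mrpl55 and Mrps21. For the test of donor by time, that is whether the brain death difference itself changed, 0 of 95 members and 0 of 18478 features passed in limma. At an unadjusted p under 0.05, 3 members were above 0 and none below, beside 2.24% and 2.98% of all features. They were Rpl34 (0.50 ± 0.20, SE), Mrps34 (0.26 ± 0.09) and Mrpl40 (0.24 ± 0.07), with adjusted p of 0.917, 0.881 and 0.791 in limma. Next highest were Rps15 (0.25 ± 0.15) and Rpl32 (0.19 ± 0.15) in the cytosolic set and Mrpl20 (0.15 ± 0.15) in the mitochondrial set. The lowest cytosolic values were Rpl3l (-0.34 ± 0.35), Rps3 (-0.18 ± 0.13) and Rps24 (-0.18 ± 0.13). The lowest mitochondrial ones were Mrps22 (-0.15 ± 0.14), Mrps5 (-0.11 ± 0.14) and Mrpl46 (-0.08 ± 0.12).

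**Figure D4:**
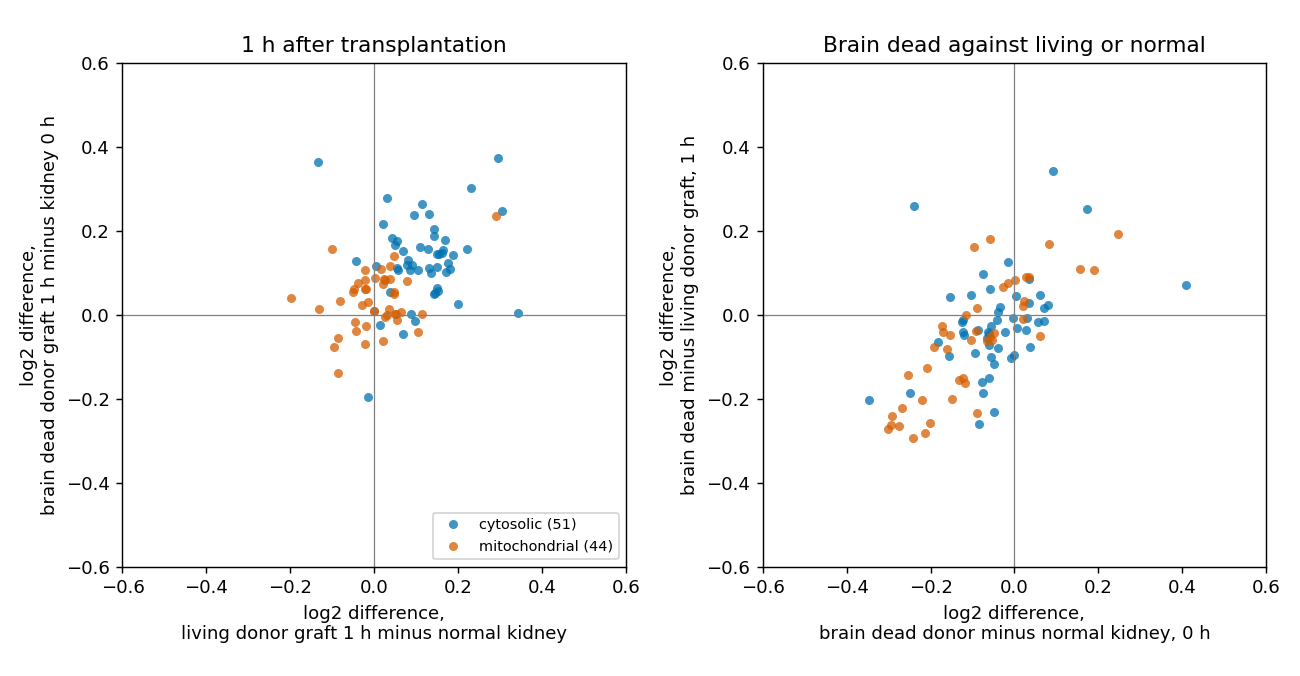
Log2 difference in 1 comparison against that in another that shares no array, for 51 cytosolic (blue) and 44 mitochondrial (orange) genes. In the left panel (1 h grafts minus their own donor state) 45 of 51 cytosolic genes lie above 0 on both axes, and in the right panel (brain dead minus normal or living donor) 28 of 44 mitochondrial genes lie below 0 on both.

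The next comparisons asked what transplantation added within each kind of donor. No ribosomal protein gene passed in either: 0 of 95 in living donor grafts against normal kidneys, beside 0.731% of all features (0.541% higher and 0.189% lower), and 0 of 95 in brain dead donor grafts against brain dead donor kidneys at 0 h, beside 0.0541% (0.0379% higher and 0.0162% lower). At an unadjusted p under 0.05, 6 cytosolic genes were higher and none lower in the first, beside 5.55% and 5.34% of all features. In the second, 10 were higher and none lower, beside 5.72% and 7.39%. Among mitochondrial genes 1 was lower in the first and 1 higher in the second.

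Small positive differences were shared by nearly the whole cytosolic set. In living donor grafts 48 of 51 genes were above the normal kidneys, with a median difference of 0.13, beside 8821 of 18478 features and a median of -0.0059. In brain dead donor grafts 47 of 51 were above their donor state, with a median of 0.13, beside 9040 features and a median of -0.0032. Both were above 0 in 45 of 51 genes (88.2%), beside 29.9% of all features and 18 of 44 mitochondrial genes. Across the 51 genes the 2 differences correlated at a Pearson r of only 0.095 and a Spearman rho of 0.072. Over all features these were 0.495 and 0.403, and over mitochondrial genes 0.343 and 0.132. The cytosolic genes thus shared a sign but hardly the order of their sizes. The mitochondrial medians were 0.0006 (22 of 44 above 0) and 0.03 (33 of 44 above 0).

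The size of this shift changed when single arrays were left out. Without replicate 25 the first median was 0.06 (40 of 51 above 0), and without replicate 27 the second was 0.06 (38 of 51 above 0). When replicates 25 and 27 and replicate 3 of the brain dead donor kidneys were left out together, a setting chosen after seeing the data, the medians were 0.06 (40 of 51) and 0.11 (43 of 51). With quantile normalization they were 0.07 (39 of 51) and 0.09 (42 of 51). The mean of the 3 array medians was 0.14 ± 0.04 (SD, n = 3) in normal kidneys and 0.26 ± 0.11 in living donor grafts, and 0.08 ± 0.08 and 0.21 ± 0.11 in the brain dead donor groups, so array medians overlapped in both comparisons. In these same comparisons the proximal tubule markers had medians of -0.31 (6 of 7 below 0) and -0.32 (7 of 7 below 0), with none called. Their array medians lay from 0.03 to 0.07 in normal kidneys, from -0.33 to -0.12 in living donor grafts, from -0.09 to 0.22 in brain dead donor kidneys and from -0.44 to -0.17 in brain dead donor grafts. Markers of the loop of Henle and distal nephron went the other way. The mean of their array medians was 0.18 ± 0.08 (SD) in normal kidneys and 0.38 ± 0.41 in living donor grafts. It was 0.20 ± 0.11 in brain dead donor kidneys and 0.45 ± 0.22 in their grafts.

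The shift was counted in both subunits. Differences above 0 were counted in 28 of 30 large and 20 of 21 small subunit genes in living donor grafts, and in 27 of 30 and 20 of 21 in brain dead donor grafts. Among the 41 genes with a promoter window, those with a TOP at the annotated start had medians of 0.14 in both comparisons (13 and 14 of 14 above 0), and those without had 0.11 and 0.12 (25 and 24 of 27 above 0). Whether these medians differ was not tested.

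Rps26, which lies at the mRNA exit of the small subunit, had the second highest value in living donor grafts. It measured -0.17, -0.44 and -0.17 in normal kidneys and -0.05, 0.03 and 0.16 in living donor grafts, and -0.23, -0.18 and -0.12 in brain dead donor kidneys against 0.06, -0.08 and 0.23 in their grafts. The groups did not overlap in either comparison. The differences were 0.31 ± 0.10 (SE, adjusted p of 0.278 in limma) and 0.25 ± 0.10. Rpl10, which completes the peptidyl transferase centre, measured 0.42, 0.54 and 0.36 in normal kidneys and 0.55, 0.67 and 0.63 in living donor grafts, a difference of 0.18 ± 0.07 with no overlap. Groups did not overlap for 12 of 51 cytosolic genes in living donor grafts, all higher, beside 18.5% of all features. In brain dead donor grafts they did not overlap for 17, of which 16 were higher and 1 (Rps3) lower, beside 18.8%.

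The other ends of these comparisons were as follows. In living donor grafts Rpl3l (0.34 ± 0.25) and Rpl41 (0.29 ± 0.23) were high, and Rpl34 (-0.13 ± 0.14), Rpl18 (-0.04 ± 0.08) and Rps3 (-0.01 ± 0.09) were the cytosolic genes below 0. In brain dead donor grafts Rpl41 (0.37 ± 0.23), Rpl34 (0.37 ± 0.14) and Rpl24 (0.30 ± 0.12) were highest, and Rps3 (-0.20 ± 0.09), Rpl29 (-0.04 ± 0.06) and Rpl5 (-0.02 ± 0.07) lowest. Rplp0 measured 0.15, 0.22 and 0.14 in normal kidneys and 0.11, 0.22 and 0.42 in living donor grafts, and the groups overlapped. Rps6 differed by 0.07 ± 0.10 and 0.15 ± 0.10, Rpsa, which is also known as a laminin receptor, by 0.15 ± 0.12 and 0.07 ± 0.12, and Rpl11 by 0.15 ± 0.10 and 0.05 ± 0.10.

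Among mitochondrial genes Mrpl40 stood at the low end in living donor grafts. It measured -0.08, -0.12 and -0.04 in normal kidneys and -0.32, -0.27 and -0.23 in living donor grafts, and the difference was -0.20 ± 0.05 (SE, adjusted p of 0.146 in limma). These arrays did not overlap, as was so for 18.5% of all features in this comparison. In brain dead donor grafts it lay at -0.12, -0.09 and -0.07, against -0.06, -0.14 and -0.20 at 0 h, a difference of 0.04 ± 0.05. Mrpl20 (-0.13 ± 0.11) and Mrps34 (-0.10 ± 0.06) were the next lowest in living donor grafts, and Mrpl16 (0.29 ± 0.44), Mrps5 (0.11 ± 0.10) and Mrps22 (0.10 ± 0.10) the highest. In brain dead donor grafts the ends were Mrpl16 (0.24 ± 0.44), Mrps34 (0.16 ± 0.06) and Mrps18a (0.14 ± 0.07), and Mrpl28 (-0.14 ± 0.18), Mrpl30 (-0.08 ± 0.08) and Mrpl15 (-0.07 ± 0.05).

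In the companion lists the calls lay in growth control. Myc, which drives transcription of ribosome genes, rose by 1.43 in living donor grafts, and Ddit4, a stress-induced inhibitor of mTOR complex 1, rose by 1.19 there and by 1.02 in brain dead donor grafts. None of 38 ribosome assembly genes, 26 translation factors or 16 genes of mitochondrial translation passed in either comparison in limma. Unadjusted p was under 0.05 for 4, 3 and 2 of them in living donor grafts and for 3, 4 and 2 in brain dead donor grafts. Over all features it was so for 5.55% higher and 5.34% lower in living donor grafts, and for 5.72% and 7.39% in brain dead donor grafts. List medians were 0.02, 0.08 and -0.03 in the first and 0.01, 0.06 and -0.05 in the second.

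The brain dead donor grafts at 1 h were finally set against normal kidneys, which adds donor and surgery together. Here 2 of 51 cytosolic genes rose and none fell, and 5 of 44 mitochondrial genes fell and none rose, beside 15.2% of all features called in either direction, 6.15% higher and 9.08% lower. These are 3.92% of the cytosolic and 11.4% of the mitochondrial genes. At an unadjusted p under 0.05, 6 cytosolic genes were higher and 1 lower, and 0 mitochondrial genes were higher and 7 lower, beside 13.4% of all features higher and 16.7% lower. Groups did not overlap for 13 cytosolic and 11 mitochondrial genes, beside 34.6% of all features. The cytosolic median was 0.09 (38 of 51 above 0) and the mitochondrial median -0.07 (30 of 44 below 0), beside a median of 0.0016 over all features. Without replicates 25, 27 and 3 of the brain dead donor kidneys, the cytosolic median was 0.01 (26 of 51 above 0) with 0 calls, and the mitochondrial one -0.13 with 4 genes lower.

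Mrps21 fell by 0.35 ± 0.06 (SE) on the log2 scale, to 78.5% of the normal level (adjusted p of 0.00554 in limma). It passed in all 12 fits that left out 1 array, at an adjusted p of at most 0.0247. No other member passed in all 12 of these fits in any comparison. Mrpl30 measured 0.29, 0.29 and 0.26 in normal kidneys and 0.04, -0.16 and 0.07 in brain dead donor grafts, with no overlap, and fell by 0.30 ± 0.08 (adjusted p of 0.0257 in limma). Its 8 calls in 12 such fits were lost, among others, without replicate 1 of the normal kidneys (adjusted p of 0.0743). Mrpl53 measured -0.16, -0.19 and 0.04 in these grafts, below its 3 normal values, and fell by 0.27 ± 0.07 (adjusted p of 0.0253 in limma, 7 of 12 fits, 0.0810 without replicate 2 of the normal kidneys).

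Mrpl55 and Mrpl15, also of the large subunit, passed less often when arrays were left out. Mrpl55 measured 0.29, 0.30 and 0.17 in normal kidneys and -0.06, -0.25 and 0.12 in brain dead donor grafts, and fell by 0.32 ± 0.09 (adjusted p of 0.0492 in limma, 2 of 12 fits, 0.133 without replicate 2 of the normal kidneys). Mrpl15 measured 0.28, 0.21 and 0.30 in normal kidneys and 0.13, 0.02 and 0.09 in the grafts, and fell by 0.19 ± 0.05 (adjusted p of 0.0385 in limma, 3 of 12 fits, 0.117 without replicate 3 of the normal kidneys). Mrpl28 had the lowest difference of all, -0.38 ± 0.18, with values of -0.08, -0.65 and 0.23 in the grafts, and did not pass. Mrpl16 (0.48 ± 0.44), Mrpl44 (0.17 ± 0.09) and Mrps30 (0.16 ± 0.11) were highest.

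**Figure D5:**
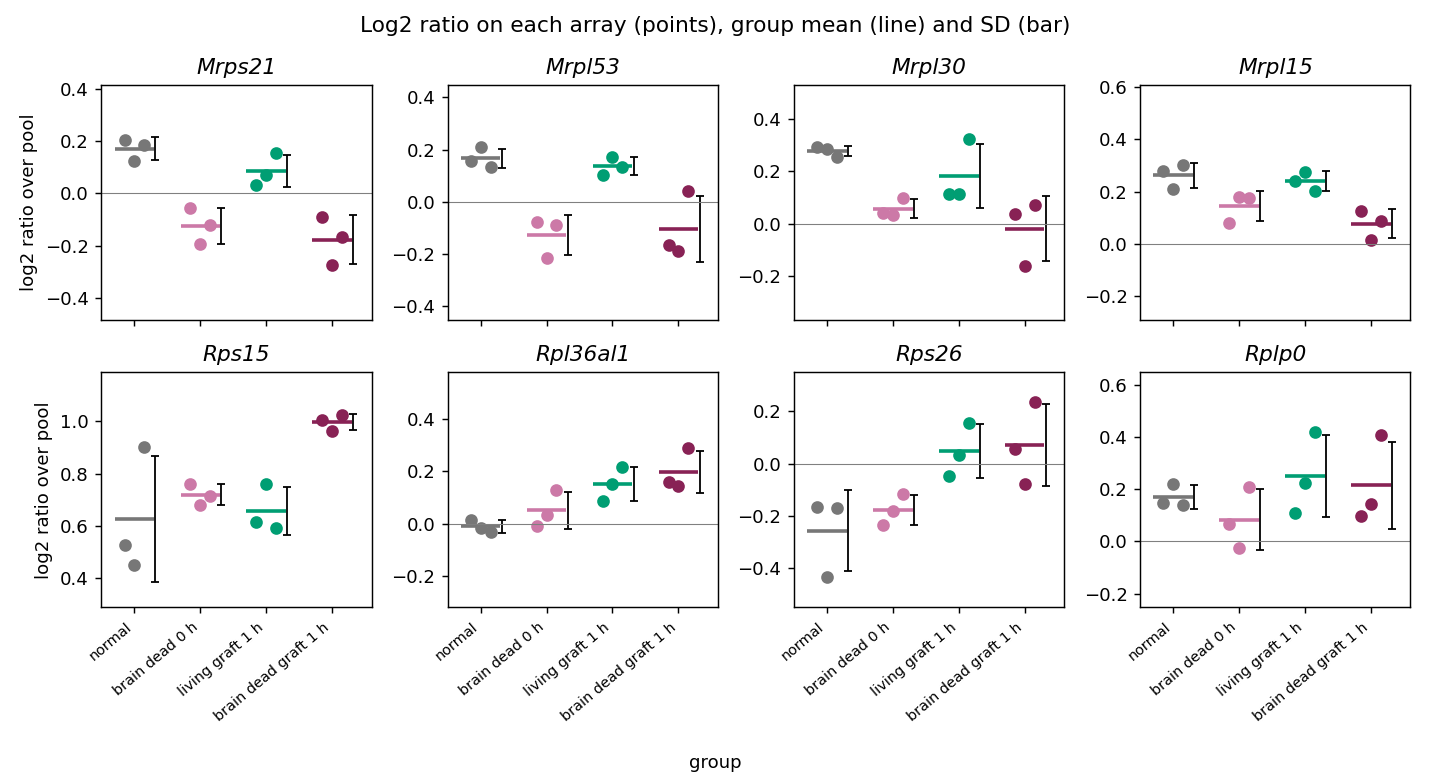
Log2 ratio over the normal kidney mixture on each array (points) for 8 ribosomal protein genes in the 4 groups (horizontal axis), with the group mean (line) and SD (bar, n = 3 arrays). Each panel spans 0.9 log2 units. Mrps21 lies lower in both brain dead donor groups than in normal kidneys and living donor grafts, and Rps15 is highest in brain dead donor grafts, at 0.96 to 1.02.

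The 2 cytosolic genes that rose were Rps15 and Rpl36al1. Rps15 measured 0.52, 0.45 and 0.90 in normal kidneys and 1.01, 0.96 and 1.02 in brain dead donor grafts, with means of 0.63 ± 0.24 and 1.00 ± 0.03 (SD, n = 3). It rose by 0.37 ± 0.10 (SE), to 129% of the normal level (adjusted p of 0.0370 in limma). The third normal array lay close to the grafts, and the call passed in 4 of 12 fits, with an adjusted p of 0.119 without replicate 1 of the normal kidneys. Rpl36al1, listed under a symbol of a large subunit paralogue, measured 0.01, -0.02 and -0.03 in normal kidneys and 0.16, 0.14 and 0.29 in the grafts. It rose by 0.21 ± 0.06 (adjusted p of 0.0401 in limma), and its 2 probes gave 0.25 and 0.17. The call passed in 5 of 12 fits, with an adjusted p of 0.111 without replicate 27. Living donor grafts had 0.08, 0.15 and 0.22 for this gene, all above the normal kidneys, and the difference of 0.16 ± 0.06 there did not pass. Other high values were Rpl41 (0.55 ± 0.23) and Rpl3l (0.41 ± 0.25). Rps3 (-0.25 ± 0.09), Rpl15 (-0.11 ± 0.12) and Rpl8 (-0.09 ± 0.08) were lowest.

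Of the 4 members listed under paralogue symbols, Rpl36al1 alone passed a test in any comparison. Rpl3l ranged from -0.05 to 1.07 over the 12 arrays. Rpl37l1 lay at 0.11, 0.24 and 0.13 in normal kidneys, -0.05, 0.08 and 0.14 in brain dead donor kidneys, and 0.25, 0.23 and 0.48 in their grafts, the last 2 groups without overlap (difference 0.26 ± 0.08, not called). Rps27l was lowest in brain dead donor kidneys and lay at -0.25, -0.13 and 0.11 in living and -0.12, -0.25 and -0.09 in brain dead donor grafts. The 8 members with more than 1 probe had no pair of probes that differed by over 1 log2 unit in any comparison. Of the ribosomal proteins with other symbols, Dap3 and Gadd45gip1 were measured, and neither passed in any comparison, with values against normal kidneys of 0.08 ± 0.05 and 0.05 ± 0.08 in brain dead donor grafts.

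In the list of mitochondrial translation 6 of 16 genes fell and 1 rose in brain dead donor grafts against normal kidneys, with a list median of -0.16. Over all features 9.08% were called lower and 6.15% higher. The list is not of translation alone, since Polrmt is the mitochondrial RNA polymerase and Mterf2 binds mitochondrial DNA. Mterf2 fell by 1.15 on the log2 scale, Mterf1 by 0.79, the mitochondrial RNA polymerase Polrmt by 0.47, Mtif2 by 0.37, Mtfmt by 0.27 and Mtg2, a GTPase of large subunit assembly, by 0.25, while Nsun4 rose by 0.57. In ribosome assembly 8 of 38 rose and 1 fell (median 0.08), and in translation factors 5 of 26 rose and none fell (median 0.13). In growth control Myc rose by 1.92, Ddit4 by 1.13 and Sesn2 by 1.03, and Mtor fell by 0.44. Proximal tubule markers had a median of -0.33 with 2 of 7 lower, Lrp2 (-0.54) and Slc34a1 (-0.45). Markers of the loop of Henle and distal nephron went the other way, with mean array medians of 0.18 ± 0.08 (SD) in normal kidneys and 0.45 ± 0.22 in these grafts. The part of tubule cell number in the ribosomal values was not tested.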

How the data were processed

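RNA of 12 rat kidney samples was measured on 2-colour arrays against a pool of normal kidney RNA. Per the design text, the authors applied per-spot, per-chip and lowess normalization and expressed Cy3 relative to Cy5. The deposited values are read as log10 ratios (they end at 2 in either direction, a ratio of 100), and the direction rests on the design text. They were multiplied by 3.322 to give log2, and probes with the same single symbol of the platform annotation were averaged. Group means were fitted with limma 3.58.1 (lmFit, eBayes; R 4.3.3) over all 12 arrays, and p-values were adjusted (Benjamini-Hochberg) over 18478 features in each of 6 contrasts. Members and lists were chosen with earlier results of these data known, and no p was computed for a list. Named were members that passed, the 3 highest and 3 lowest of each class and contrast, and a fixed group of genes with known roles or paralogue symbols. Other genes with no overlap of groups were picked after their values were seen. Motifs were searched in RefSeq promoter windows (GRCr8). Alternatives were other normalizations, fits, weights, probe handling and arrays left out. No slide or scan date was used here, so no batch was tested.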

Additional observations from a re-analysis of the deposited data

How the results depend on the processing

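Members passing and class medians were recomputed in 192 combinations of result and alternative, of which 175 stayed within 1.5 times (counts) or 1 SD of the array medians, and with 1 array left out 251 of 288 did. That SD was 0.0903 for cytosolic and 0.0638 for mitochondrial medians, near the size of the medians themselves. A median could therefore change sign and still count as unchanged, as did a count that stayed at 0, so the tally is a weak measure of stability. Leaving out an array of a group outside the comparison, or fitting only the 2 groups compared, cannot move a median of their differences. Such medians counted as unchanged by construction. The cause of each change was not tested. For brain dead donor against normal kidneys, 2 mitochondrial genes passed, against 0 with the replicate block, 0 with only these 2 groups in the fit, 0 without the 3 arrays of highest ribosomal medians (median -0.173) and 7 with array weights, which also called 1 cytosolic gene. Same-numbered arrays of these groups share only a number (correlations of deviations from 0.0337 to 0.328), normal 2 and 3 did not correlate best with their own number, and the replicate block left 2 of the 860 features called. For brain dead against living donor grafts, where 1 mitochondrial gene passed, 0 passed with quantile normalization, in the 2-group fit and without the 3 arrays, 3 with array weights and 2 over named genes only. For brain dead donor grafts against normal kidneys, 2 cytosolic genes passed, against 0 without the 3 arrays or in the 2-group fit and 1 with array weights or each probe singly, and the 5 mitochondrial genes became 1 in the 2-group fit. Array weights called 1 mitochondrial gene in living donor grafts. With 1 array left out, mitochondrial counts ran from 0 to 2, from 0 to 3 and from 1 to 6 in these comparisons, and cytosolic counts from 0 to 0, 0 to 1 and 0 to 2. Mitochondrial medians ran from -0.173 to -0.0799, from -0.116 to -0.0123 and from -0.125 to -0.0351, and cytosolic ones from -0.0931 to -0.00742, -0.0908 to 0.0309 and 0.00897 to 0.142. Within donors, cytosolic medians ran from 0.0620 to 0.173 (living) and 0.0620 to 0.183 (brain dead), mitochondrial ones from -0.0404 to 0.0389 and -0.0174 to 0.0750, with 0 calls. The donor by time medians ran from -0.0467 to 0.0459 and -0.0168 to 0.0820. Over all features, counts moved by more than 1.5 times as follows: 860 became 2852 with array weights, 350 in the 2-group fit and 375 without the 3 arrays. The 1249 became 310 with quantile normalization, 427 in the 2-group fit, 813 over named genes and 107 without the 3 arrays. The 135 became 483 with array weights and 86 over named genes, the 10 became 0 with quantile normalization, in the 2-group fit and without the 3 arrays, 68 with array weights and 6 over named genes, and the 2814 became 1590 over named genes. Counts over named genes are out of 9653 genes in place of 18478 features, so a lower count there need not be a lower share. In the alternatives other than leaving out 1 array, the median of all features lay within 0.0195 of 0 in every comparison.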
